A study of Mus musculus with 15 samples.

Results

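Bcl11b, Tcf12, Notch1, Ebf1, Bcl11a, Ciita, Cd80 and Tnfsf18 are 8 mouse genes that steer the development or activation of lymphocytes, and 10 p53 ChIP-seq regions lay inside them or within 20 kb of them. These are 10 of the 4137 distinct regions in 3 organ lists, of thymus (2405 regions), spleen (2604) and liver (3872). The genes were chosen by earlier results of these lists, in which a region near each of them was already known. That a gene has a region, and the rank of its regions, are therefore given as descriptions with no test. The regions themselves were found by position alone, from RefSeq gene boundaries on the mm10 build.

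ChIP-seq sequences DNA that an antibody recovers together with a protein, here the stress-responsive transcription factor p53. Each organ was sampled from wild-type mice as 5 libraries: 2 taken 3 h after 2 Gy of X-rays, 2 from untreated mice and 1 input library of chromatin not taken through the antibody step. The labels name no strain, sex, age or antibody. Regions were assigned to genes by position only. The authors deposited 1 list per organ, and the labels attach it to all 5 libraries of that organ, although it is named for irradiated material and for IgG, the usual nonspecific antibody control, and no library is labelled IgG. A list is thus a single measurement: irradiated and untreated mice could not be compared, there was no replicate spread, and read depth is unknown. Dissected organs were used, not sorted cells, so a region bound in few cells and a region bound weakly in many cannot be told apart.

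In thymus, T-cell precursors mature under Notch signalling. Notch1 is the receptor that starts this program, Tcf12 (HEB) is an E protein that works with it, and Bcl11b is the zinc finger factor that fixes T-cell identity. In B-cell development Ebf1 sets up the B-lineage program, Bcl11a is required for early B-cell progenitors, and Ciita is the master activator of MHC class II genes in B cells and other antigen-presenting cells. Cd80 (B7-1) is a surface ligand by which antigen-presenting cells engage CD28 and CTLA-4 on T cells, and Tnfsf18 is the ligand of the T-cell receptor GITR. Spleen holds mature B and T cells with myeloid cells, while liver consists mainly of hepatocytes. p53 binds DNA as a tetramer, typically at a pair of 10-base half-sites.

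Sequence was at hand for the 2 regions that lie wholly inside a RefSeq promoter window of their gene (GRCm38.p6, the assembly that mm10 names; 250 bases before and 50 from the start on). They are shown because both cover a transcription start. The Cd80 region, chr16:38458701-38458950 on the plus strand, holds 2 adjacent matches to the p53 half-site consensus, in capitals. The Notch1 region, chr2:26503801-26503950, is printed on the minus strand, that of the gene, and holds no comparable match.
Cd80: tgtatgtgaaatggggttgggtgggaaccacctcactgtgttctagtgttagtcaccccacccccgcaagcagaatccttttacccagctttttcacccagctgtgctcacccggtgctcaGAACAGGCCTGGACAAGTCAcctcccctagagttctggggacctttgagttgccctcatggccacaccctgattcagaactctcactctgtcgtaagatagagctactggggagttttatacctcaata
Notch1: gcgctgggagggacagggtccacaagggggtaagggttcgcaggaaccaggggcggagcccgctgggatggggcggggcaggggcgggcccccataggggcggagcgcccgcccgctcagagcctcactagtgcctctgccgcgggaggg

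The 20 capital bases of Cd80 (chr16:38458822-38458841) consist of 2 half-sites with no spacer, each with 1 mismatch to the half-site consensus. Their centre lay 101.5 bp upstream of the listed start of Cd80 and 6 bp from the centre of the region. No other position of the region came closer than 6 mismatches over an adjacent pair. Of 32851 RefSeq promoter windows cut to the same 250 bases, 215 (0.654%) held an adjacent pair with 2 mismatches or fewer. In the Notch1 region the best adjacent pair had 7 mismatches, which 99.3% of windows of its length equalled or bettered, and its closest single half-site had 2. Allowing up to 13 bp between the half-sites lowered the Notch1 value to 5 and left the Cd80 value at 2. The Notch1 region was richer in G and C, at 75.3% against a median of 54.7% over promoter windows of that length, while the Cd80 region was at 52.0% against 52.8%. The consensus reads the same on both strands, so 1 search covers both. These are matches of letters and show no binding by themselves.

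**Figure D1:**
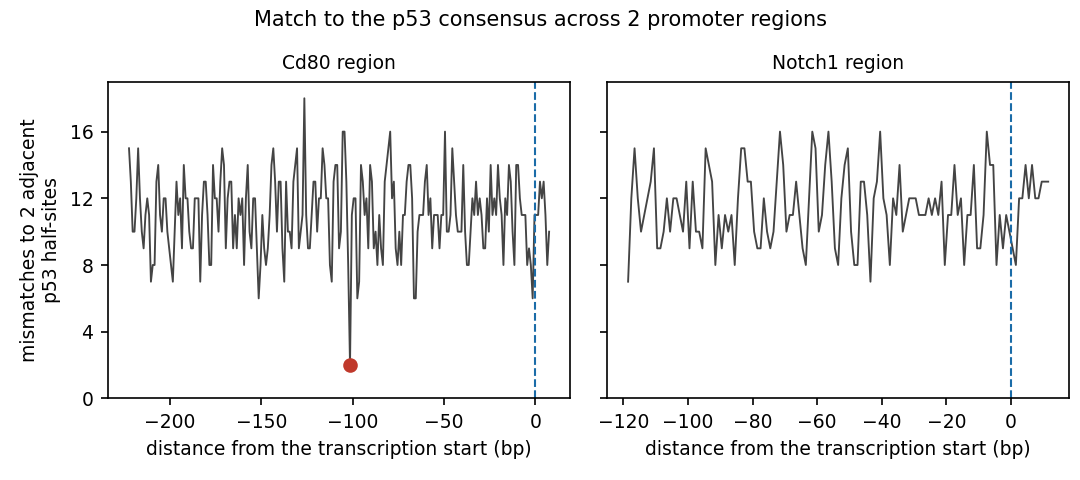
Mismatches to 2 adjacent p53 half-sites (y axis, of 20 bases) against the distance of the pair's centre from the listed transcription start (x axis, bp; dashed line, the start) for the Cd80 region (left) and the Notch1 region at its start (right). The Cd80 curve drops to 2 mismatches at 1 position (red point), while the Notch1 curve stays at 7 or more.

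Promoter windows that a region touches held such pairs more often than the other windows of the table. An adjacent pair with 2 mismatches or fewer was found in 20 of 422 windows touched by a thymus region (4.74%, against 0.746% of untouched windows), in 23 of 507 touched by a spleen region (4.54%, against 0.739%) and in 31 of 1720 touched by a liver region (1.80%, against 0.742%). The Cd80 window is among them in all 3 lists. These shares are over windows of 300 bases, some of which overlap, and no test was run on them.

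The thymus list had a region for 5 of the 8 genes, the spleen list for 8 and the liver list for 6. Of all 21887 coding genes, 11.6% had a region inside or within 20 kb in the thymus list, 12.8% in the spleen list and 22.3% in the liver list. Among the 13228 coding genes as long as the members, from 10.6 to 390.0 kb, the shares were 13.8%, 15.4% and 26.0%. Because the genes were picked for having regions, nothing is read from their counts against these shares. Of the 10 regions, 7 were in the thymus list, 8 in the spleen list and 8 in the liver list. All 3 lists held 5 of them, 2 were in thymus and liver, 1 in spleen and liver and 2 in spleen alone. None was in thymus alone, in liver alone or in thymus and spleen without liver. Of all distinct regions, 46.7% were in all 3 lists, 6.02% in thymus and liver, 10.6% in spleen and liver and 0.943% in spleen alone. Thymus alone held 0.701%, liver alone 30.3%, and thymus and spleen without liver 4.76%.

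Positions differed among the genes. Inside the gene lay 7 of the regions, 1 straddled the 5′ end of Notch1, and 2 lay outside. Within 1 kb of an annotated gene end were the centres of 2 of the 10, against 45.2% of all distinct regions. Another 7 had their centre inside some gene but further from its ends, against 30.6%; this count takes in Cd80, whose listed start lies within the annotated gene, and Tnfsf18, whose region is in a noncoding gene. Exons and introns could not be told apart with the annotation used here. Regions of the lists are multiples of 50 bp wide, and the 10 ranged from 50 bp (Ebf1, Ciita and Tnfsf18) to 550 bp (the upstream region of Notch1). The next region of any list was 2751 bp away for the Notch1 pair and at least 22051 bp away for the others.

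**Figure D2:**
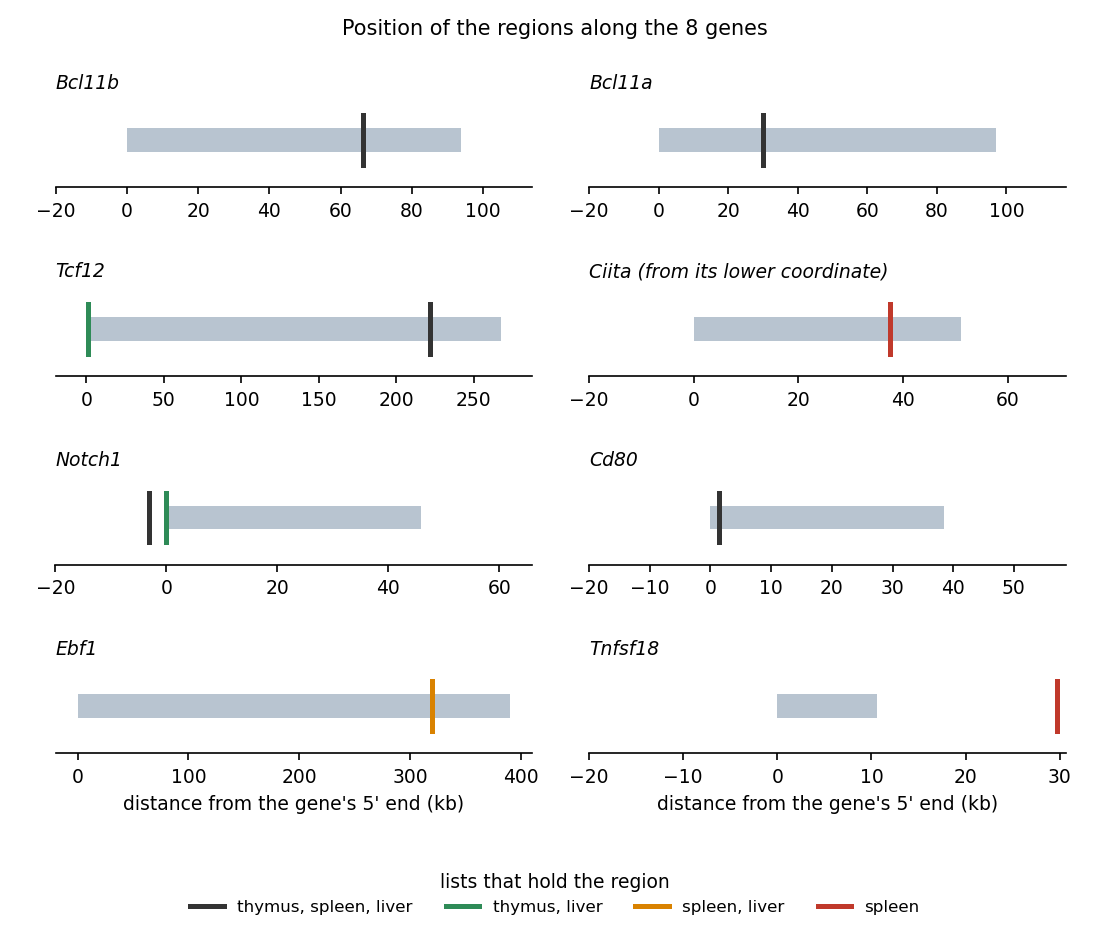
Each gene (grey bar, drawn to its own scale) with its regions (vertical lines, coloured by the lists that hold them) against the distance from the 5′ end of the gene in kb; Ciita, whose strand was not in the table used, is drawn from its lower coordinate. Regions sit deep inside Bcl11b, Ebf1, Ciita and Tcf12, at the 5′ end of Notch1 and Tcf12, and 19011 bp past the end of Tnfsf18.

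The score of a region is the authors' own value, on a scale that neither labels nor headers state. It was therefore read as a percentile: the rank in its list, counted up from the lowest score, as a percent of the list length. Tied scores took their average rank. The standing of a region among those of its own width is instead the share that score as high or lower. Scores ran between 6.998 and 30.7 in thymus, 6.996 and 35.0 in spleen, and 7.004 and 51.8 in liver, so raw scores are not on a shared range.

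Bcl11b carried 1 region, deep inside the gene, that ranked high in thymus and at the very bottom of the spleen list. It spans chr12:107937601-107937850, 65564 bp downstream of the listed start of the gene (chr12:107910403-108004145, minus strand). Its score was 24.3 in thymus (percentile 85.4), 6.998 in spleen (0.115) and 21.3 in liver (51.8). In the spleen list it was number 3 of 2604 counted up from the lowest score. The thymus minus spleen difference was 85.3 percentile points, and none of the other 2126 regions that both lists hold had a larger one. The median over all 2127 shared regions was -1.05, and their 5% and 95% quantiles were -47.7 and 42.8. Among regions of its own 250 bp width, Bcl11b stood at 90.3 in thymus, 0.152 in spleen and 46.2 in liver.

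Tcf12 (chr9:71844252-72111893, minus strand) carried 2 regions with opposite orders of thymus and liver. The intragenic one, chr9:71889801-71890250, lies 5846 bp downstream of a listed start inside the gene and ranked at 91.7 in thymus, 96.5 in spleen and 33.3 in liver. Its scores were 26.7, 31.6 and 17.9. Thymus exceeded liver there by 58.5 points, more than in 94.1% of the 2179 regions shared by these lists, and spleen exceeded liver by 63.3 points, more than in 95.3% of 2368.

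The other Tcf12 region, chr9:72110801-72111150, lies 51 bp downstream of another listed start, near the 5′ end of the gene. It ranked at 33.7 in thymus (score 13.2) and 78.8 in liver (score 26.9) and was not in the spleen list. The intragenic region thus ranked higher in both lymphoid organs than in liver, and the promoter-proximal one lower in thymus than in liver. Ranked only among regions near gene ends, the promoter-proximal one stood at 62.3 in thymus and 79.9 in liver.

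Notch1 (chr2:26457902-26503822, minus strand) also carried a region at its start and a region away from it. The region printed above, at the start, ranked at 5.65 in thymus (score 7.80) and 60.9 in liver (score 23.1) and was absent from the spleen list. Ranked only among regions near gene ends, it stood at 15.7 in thymus. It also overlaps Gm35978, a noncoding RNA gene, so which gene it belongs to is not settled by position. The upstream region, chr2:26506701-26507250, is 550 bp wide, lies 2879 bp outside Notch1 and ranked at 99.4 in thymus, 89.0 in spleen and 94.4 in liver. The thymus minus liver difference was 5.001 points, larger than in 56.0% of shared regions. Its scores were 29.5, 29.1 and 31.7, and it was number 2390 of 2405 in thymus counted up from the lowest score. Among regions of its own width it stood at 98.7 in thymus, 57.5 in spleen and 65.5 in liver, so its rank in spleen and liver was nearer the middle of equally wide regions. This was the region with the highest percentile among the 10 in both thymus and liver, and no other coding gene lay within 20 kb of it.

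Ebf1 carried 1 region, absent from the thymus list. It spans only 50 bp at chr11:44937801-44937850, 317573 bp downstream of the nearest listed start of this 390.0 kb gene (chr11:44618100-45008096, plus strand). It ranked at 82.0 in spleen (score 26.9) and 33.7 in liver (score 18.0). The spleen minus liver difference of 48.2 points was larger than in 90.2% of shared regions.

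Bcl11a carried 1 region inside the gene that all 3 lists held, at chr11:24106401-24106550, 25706 bp downstream of the listed start (gene chr11:24076564-24173558, plus strand). It ranked at 38.7 in thymus (score 14.1), 46.0 in spleen (score 18.9) and 3.18 in liver (score 8.59). Thymus and spleen were thus close, at a difference of -7.38 points, and liver was the lowest. Both lymphoid values were still below the middle of their lists.

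Ciita carried 1 region, and the spleen list alone held it. This 50 bp region, chr16:10517401-10517450, lies inside Ciita (chr16:10480014-10531064) and also inside LOC115488669, a noncoding RNA gene, and ranked at 83.1 (score 27.3). The coding gene Dexi is within 20 kb as well. Only 39 of the 4137 distinct regions were in spleen alone.

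Cd80 (chr16:38457430-38495958, plus strand) ranked higher in spleen than in thymus or liver. Its region with the p53 half-site pair scored 14.1 in thymus (percentile 39.0), 29.9 in spleen (91.3) and 20.7 in liver (48.0). The thymus minus spleen difference was -52.3 points, and 76 of the 2127 shared regions had a lower one. Spleen exceeded liver by 43.3 points, more than in 87.6% of shared regions. The coding gene Adprh also lies within 20 kb.

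Tnfsf18 had the other region of the spleen list alone. It lies 19011 bp past the end of the gene (chr1:161494657-161505290, plus strand), at chr1:161524301-161524350, inside the noncoding RNA gene Gm31815, and ranked at 70.7 (score 24.3). It was the member region nearest to the limit of 20 kb. Just outside that limit lay a region 21308 bp from Tcf12 in the liver list alone (percentile 56.8). Further out, to 50 kb, were a region 38243 bp from Bcl11a in thymus and spleen (50.7 and 80.3), another 38808 bp from Tcf12 (81.2 in thymus, 60.4 in spleen and 1.19 in liver), and a pair 47879 and 49379 bp from Notch1 in all 3 lists.

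**Figure D3:**
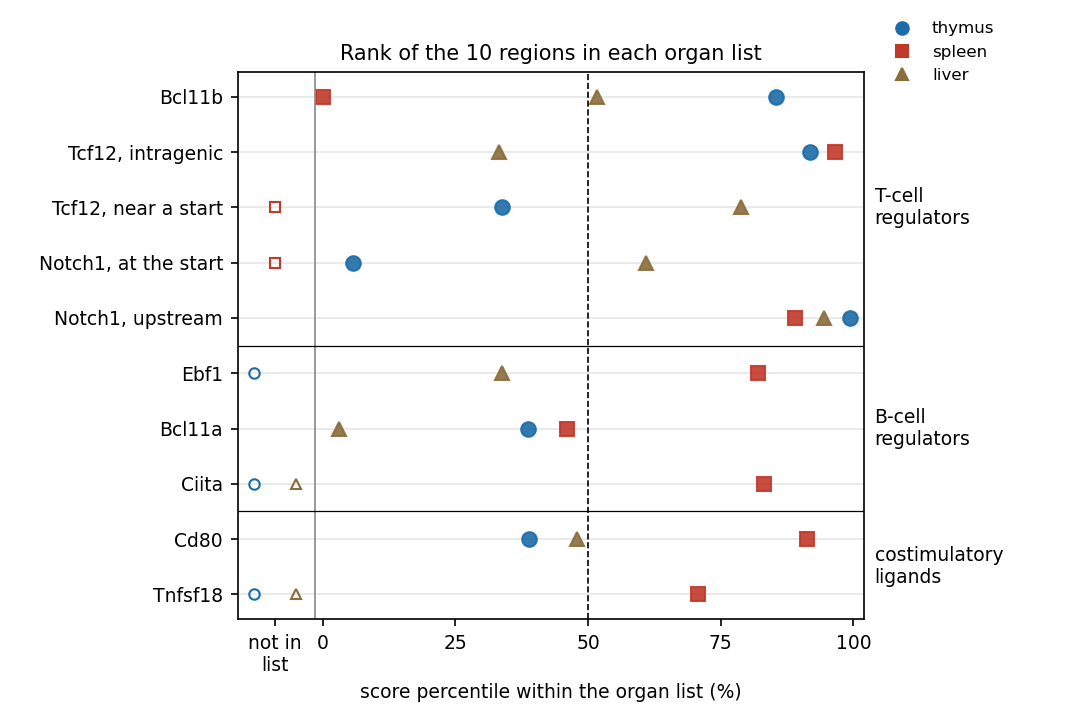
Score percentile within each organ list (x axis, %) for the 10 regions (rows, grouped by role): thymus as circles, spleen as squares and liver as triangles, with open symbols at the left for a list that does not hold the region; the dashed line marks the middle of a list. Bcl11b spans nearly the whole axis. The 5 regions of B-cell regulators and costimulatory ligands are rightmost in spleen, and so is the intragenic region of the T-cell regulator Tcf12. The regions of Ciita and Tnfsf18 have no value in another list.

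The regions of Ebf1, Ciita and Tnfsf18 were all 50 bp wide, and their ranks among equally narrow regions are given as a description. Regions of 50 bp made up 20.2% of the spleen list, with a median percentile of 34.3. Among these 526 regions alone, Ebf1 stood at the percentile 96.6, Ciita at 97.0 and Tnfsf18 at 90.7. In liver, Ebf1 stood at 52.6 among regions of its width. Narrow regions made up 21 of the 39 in spleen alone (53.8%), 17 of the 29 in thymus alone (58.6%) and 35.2% of those in liver alone. The shares were 44.2% in thymus and spleen, 41.4% in thymus and liver, 34.0% in spleen and liver, which is where Ebf1 falls, and 13.9% in all 3 lists.

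Which lists held the regions of T-cell and B-cell regulators is given as a description. The regions are few and the genes were picked for having them, so no difference between the groups is read from these counts. Of the 5 regions of T-cell regulators, 5 were in the thymus list, 3 in spleen and 5 in liver. Of the 3 regions of B-cell regulators, 1 was in the thymus list, 3 in spleen and 2 in liver. Over all distinct regions, 58.1% were in the thymus list, 62.9% in spleen and 93.6% in liver. The 2 T-cell regulator regions missing from spleen were those at a start, of Notch1 and Tcf12.

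By rank, the median of the T-cell regulator regions was 85.4 in thymus (range 5.65 to 99.4, n = 5), 89.0 in spleen (0.115 to 96.5, n = 3) and 60.9 in liver (33.3 to 94.4, n = 5). The median of the B-cell regulator regions was 38.7 in thymus (n = 1), 82.0 in spleen (46.0 to 83.1, n = 3) and 18.5 in liver (3.18 and 33.7, n = 2). The middle of a whole list is the 50th percentile by construction. Thymus minus spleen was positive for 2 of the 3 T-cell regulator regions that both lists hold, Bcl11b and the upstream Notch1 region at 10.4 points, and was -4.78 for the intragenic Tcf12 region. It was -7.38 for Bcl11a, the only B-cell regulator region in both. Over the 3 shared T-cell regulator regions the median difference was 10.4 points. The group medians of thymus and spleen stand over unlike sets, since the spleen list lacks the 2 regions at a start, and their order was not stable. Without Tcf12 they were 85.4 in thymus and 44.6 in spleen, and with regions inside the genes only 59.6 and 48.3. Medians of 1 to 5 regions are descriptions of those regions, and with 1 list per organ no test of organs could be run.

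Spleen minus liver was positive for both B-cell regulator regions that these lists share, at 42.9 points for Bcl11a and 48.2 for Ebf1, and for Cd80. For T-cell regulators it was -51.7 for Bcl11b, -5.36 for the upstream Notch1 region and 63.3 for the intragenic Tcf12 region. The median over all 2368 shared regions was -0.762. Above the 50th percentile were 3 of 7 member regions in thymus, 6 of 8 in spleen and 4 of 8 in liver, with medians of 39.0, 82.5 and 49.9.

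**Figure D4:**
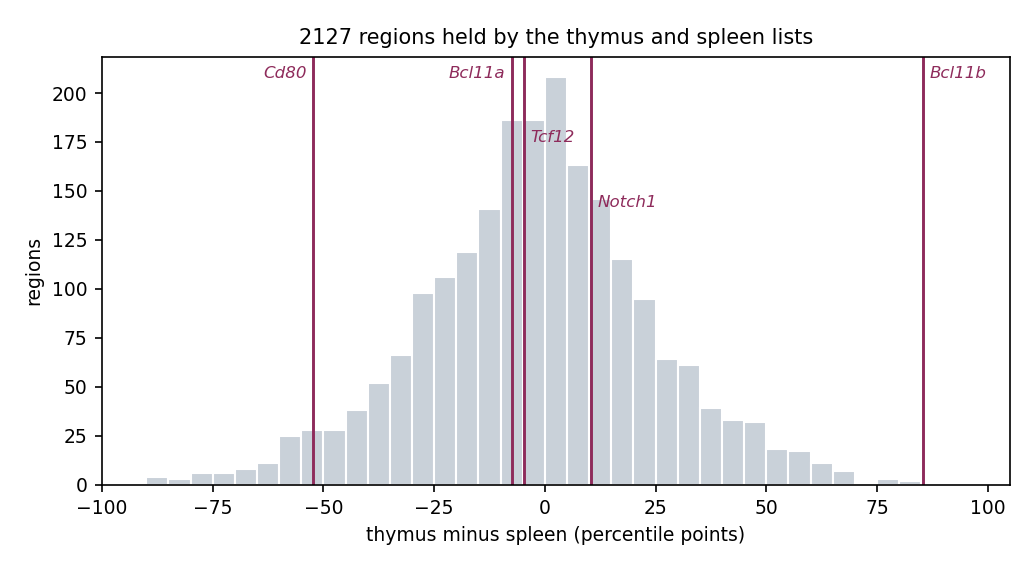
Number of regions (y axis) by thymus minus spleen difference in score percentile (x axis, percentile points) for the 2127 regions that both lists hold, with the 5 member regions as lines. Bcl11b lies at the right end of the distribution at 85.3, Cd80 in its left tail at -52.3, and Bcl11a, Tcf12 and Notch1 near its middle.

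Related genes of the same pathways were counted from lists that leave the 8 genes out. Those 8 were picked for having regions, so leaving them out lowers the share of any list they would belong to. Bcl11b, Tcf12 and Notch1, for example, each had a region in every organ list. No depletion is therefore read from a low share of such a list. Of 30 other T-cell regulators, 1 had a region within 20 kb in each organ list (3.33%), against 11.6%, 12.8% and 22.3% of all coding genes. It was Tcf3, the E protein partner of Tcf12, whose best region lies 9891 bp outside the gene at a percentile of 2.80 in spleen and 91.9 in liver. Genes such as Gata3, Tcf7, Rag1, Cd3e and Lck had no region within 20 kb in any list. Of 30 other B-cell regulators, 4 had a region in thymus (13.3%), 4 in spleen (13.3%) and 3 in liver (10%). The region with the highest rank was 12247 bp from Cd79a, which encodes a signalling chain of the B-cell receptor. It ranked at 96.7 in thymus, 97.0 in spleen and 98.0 in liver, and its centre lay within 1 kb of an end of another annotated gene. The other genes were Tcf3, which stands in both lists, Ms4a1 (CD20) and Foxo1. The Ms4a1 region ranked at 71.8 in thymus and 77.7 in spleen and lies 18952 bp outside Ms4a1, inside another annotated gene. The Foxo1 region ranked at 26.7, 42.9 and 8.73 in thymus, spleen and liver.

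Of 30 other Notch pathway genes, 5 had a region in thymus (16.7%), 6 in spleen (20%) and 11 in liver (36.7%). Over all coding genes the shares were 11.6%, 12.8% and 22.3%, so liver had the largest share there too. The highest percentiles were those of Numbl, a relative of the Notch inhibitor Numb (22.7 in thymus, 90.3 in spleen and 48.0 in liver), and of Maml1, a coactivator of Notch (43.5, 60.2 and 87.6 at its best region). Fbxw7, which targets Notch for degradation, had 4 regions, of which 3 were in all 3 lists, and its best ranked at 67.6, 33.2 and 2.53. Rfng, a glycosyltransferase that modifies Notch, had a liver region at 60.5 that lies 12150 bp outside the gene.

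Of 16 MHC class II pathway genes, 2, 3 and 5 had a region in thymus, spleen and liver. These are 12.5%, 18.75% and 31.25%, against 11.6%, 12.8% and 22.3% of all coding genes. The best regions of H2-DMa, a peptide-loading chaperone, and of Nfya, a subunit of a factor bound at class II promoters, were both in liver alone (85.1 and 70.4). Rfxank and Rfxap, subunits of the RFX complex that works with Ciita at these promoters, followed: Rfxank at 64.7 in spleen and 61.0 in liver, 7504 bp outside the gene, and Rfxap at 38.9 in liver alone.

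Of 24 costimulation genes, 4, 4 and 3 had a region in thymus, spleen and liver. These are 16.7%, 16.7% and 12.5%, against 11.6%, 12.8% and 22.3% of all coding genes. Tnfsf4 (OX40 ligand), on the same chromosome as Tnfsf18, held one at 95.4, 93.5 and 58.5, and Tnfsf9 (4-1BB ligand) followed at 70.7, 93.8 and 83.4, 14143 bp away. Tnfrsf9, the receptor of Tnfsf9, had regions in liver alone, the best at 81.1 and 10105 bp outside the gene. Pdcd1lg2 (PD-L2) held one in spleen alone (59.1). Another region, at 38.1 in thymus and 28.0 in spleen, lies within 20 kb of both Pdcd1lg2 and Cd274, so 2 of the 4 genes counted in thymus rest on 1 region. For comparison, 1 of 24 hepatocyte genes had a region in each list, Ass1 of the urea cycle, 15620 bp away at 93.4, 79.1 and 31.4. None of these lists was tested.

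**Figure D5:**
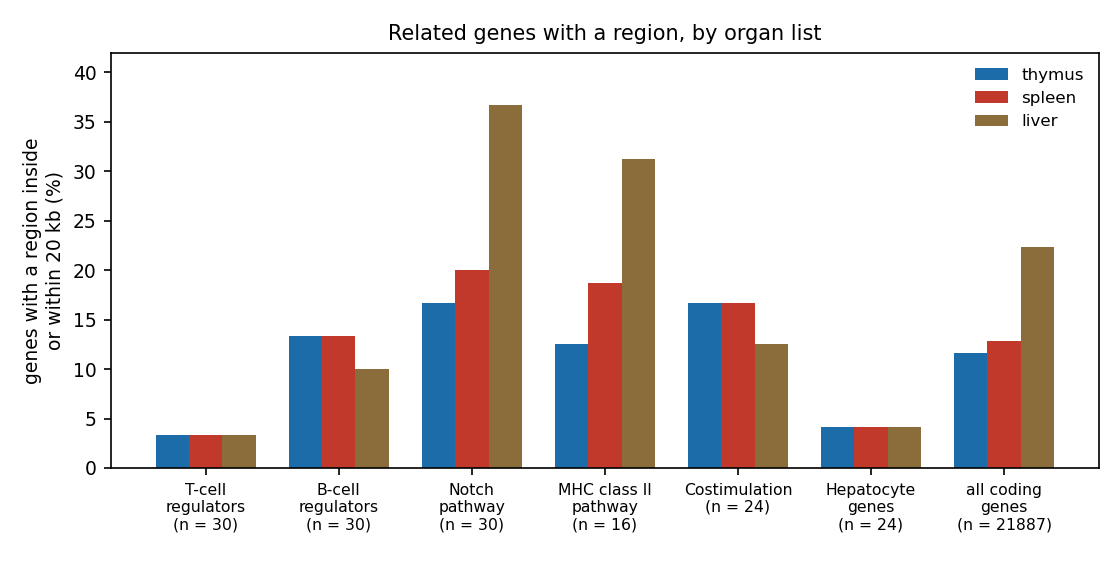
Share of genes (y axis, %) with a region inside or within 20 kb in the thymus, spleen and liver lists, for 6 lists of related genes and for all coding genes (x axis, number of genes in brackets). The other T-cell regulators and the hepatocyte genes are at 3.33% and 4.17% in each organ, below all coding genes in all 3 lists. The T-cell regulator list leaves out Bcl11b, Tcf12 and Notch1, which were picked for having regions, so its share is lowered by construction.

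Regions elsewhere with the most similar ranks over the 3 organs were looked up among the 1925 other regions that all 3 lists hold, by the summed difference of the 3 percentiles. For Bcl11b the closest lay inside Enox2 on chromosome X, at 85.7 in thymus, 10.4 in spleen and 51.7 in liver, a summed difference of 10.7 points. For Cd80 it lay inside Ift80 (30.8, 92.7 and 46.7; summed difference 10.8). For the intragenic Tcf12 region it was 2536 bp from Hcfc2 (summed difference 5.71), for the upstream Notch1 region inside Dglucy (2.28), and for Bcl11a 5956 bp from Bcl2l13 (7.29). With 3 values a region and many regions to choose from, such likeness is a description only.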

How the data were processed

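Libraries were made from thymus, spleen and liver of wild-type mice. The authors deposited 1 list of regions per organ, with no header and 6 columns, and a score in column 5 whose scale no label or header gives. Per the submitters' processing notes the build is mm10; no source used here gives aligner, region caller, filters or pooling of libraries, and no 2 regions of different lists overlapped only in part.

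The member genes, their roles and the lists of related genes were chosen with earlier results of these data known. Regions were tied to a gene when any base lay inside it or within 20 kb (RefSeq, GRCm38.p6). Overlap meant at least 1 bp. Scores were turned into percentiles of their list with average ranks for ties. Starts and strands came from the RefSeq promoter table, which has no entry used for Ciita. Every entry of the 6 related lists matched a coding gene, and some genes, such as Tcf3, stand in more than 1 list. Every member and region is named, of each related list at most 4 genes with a region, by highest percentile, and for each member region in all 3 lists the coding gene nearest to the region with the closest percentiles; Cd274 was named for a region it shares, and Gata3, Tcf7, Rag1, Cd3e and Lck were named after their values were seen, as genes without a region. The code that ties regions to genes and the percentile code were tested on made-up data, and the code for placement at gene ends was not. Alternatives were other windows, midpoints, stricter and equal-length lists, other overlaps, ties and ranking sets. Python 3.11.15, pandas 2.3.3, numpy 2.4.6, scipy 1.17.1 and matplotlib 3.10.9 were used. No hypothesis test was run.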

Additional observations from a re-analysis of the deposited data

How the results depend on the processing

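The counts of regions changed with the strictness of the lists. With each list reduced to its higher-scoring 50%, 3 member regions were left in thymus, 4 in liver and 1 in all 3 lists, against 7, 8 and 5. With lists of equal length, liver held 5 and all 3 lists 2. A window of 50 kb gave 11 in thymus and 8 in all 3 lists. Within 500 bp of a gene end lay 1 region and within 2 kb 5, against 2 at 1 kb.

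The medians rest on few regions. For T-cell regulators inside their genes they were 59.6 in thymus, 48.3 in spleen and 56.3 in liver. With 50 kb they were 80.9 in thymus and 66.7 in spleen. With the best region per gene they were 91.7 in thymus, 89.0 in spleen and 78.8 in liver. Without Tcf12 they were 85.4 in thymus and 44.6 in spleen. Away from gene ends, a setting chosen after seeing the data, they were 91.7 in thymus, 89.0 in spleen and 51.8 in liver. Ranked among regions of all 3 lists, T-cell medians were 89.97, 86.2 and 49.5 in thymus, spleen and liver. The B-cell medians were 31.9, 36.9 and 2.90 there. By construction this ranking leaves out Ebf1 and Ciita, and also the regions at a start of Notch1 and Tcf12. The latter held the lowest T-cell percentiles in thymus, 5.65 and 33.7, so the T-cell median in thymus is raised by their absence. In each of these settings the thymus median of T-cell regulators was above that of spleen, the reverse of the reported 85.4 and 89.0, which windows of 5 and 10 kb left as they were. With 50 kb the B-cell median in thymus was 44.7. The other settings tried left the B-cell medians within 1 point.

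Related genes with a region within 5 kb were counted in thymus, spleen and liver in turn. They were 1, 1 and 1 T-cell regulators, 2, 2 and 2 B-cell regulators, and 4, 5 and 9 Notch pathway genes. The MHC class II genes were 2, 1 and 5, the costimulation genes 1, 2 and 1, and the hepatocyte genes 0 in any list. Within 5 kb the shares of all coding genes were 7.17% in thymus, 8.11% in spleen and 15.2% in liver. Ranked among regions of the same width, a setting chosen after seeing the data, the thymus minus spleen difference of Cd80 was -63.2. That of Bcl11b was 90.2 there and 82.5 among regions of all 3 lists. A single percentile counted as moved when it left the 95% binomial confidence interval of its main value. Of 23 single percentiles, ranking within the same placement moved 16, most of all the promoter-proximal Tcf12 region in thymus, to 62.3, while ties moved none. Ranking among regions of all 3 lists moved 11 of 15, and 14 of the 15 fell, by at most 9.15 points. The cause of these changes was not tested. Leaving out a library was not possible with 1 list per organ, and depth is unknown.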
